A study of Mus musculus with 12 samples.

Results

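The comparison described here set the MC libraries of prefrontal cortex (PFC) small RNA against the MS libraries, so that cocaine was contrasted with saline in mice that had all received methionine. It took 6 of the 12 libraries of the series, namely MC replicates 16, 17 and 20 and MS replicates 3, 4 and 23, chosen by treatment alone and not by any measured value. All donors were adult male C57/BL6 mice. Mice of both groups were injected subcutaneously with L-methionine at 1 g/kg, 2 times a day for 10 days, per the study's methods; a figure legend of the study states another dose. MC mice were conditioned with cocaine at 20 mg/kg intraperitoneally in conditioned place preference, a test in which an animal learns to associate one chamber with the drug, and MS mice were conditioned with saline. The other 6 libraries were SS (saline and saline) and CS (cocaine without methionine), 3 libraries each. They entered the choice of features tested, the normalisation, the shared estimate of spread, the comparison of library profiles and the interaction. Their values are also given beside some results. Tissue was taken 2 h after the test, each library was made from RNA pooled from 2 mice, and RNA of 18 to 30 nt was read by 50 bp single-end sequencing. Because each library was a pool, n = 3 in every group refers to pools and not to single mice. The labels do not say how the 3 pools of a group were kept apart during treatment or library preparation, so p-values measure the spread between these libraries.

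Cocaine blocks the dopamine transporter, and the PFC is one of the regions that receive dopaminergic input and take part in reward learning. Methionine is the precursor of S-adenosylmethionine, the methyl donor of DNA and RNA methylation. Mature miRNAs are loaded into Argonaute proteins and pair with target mRNAs mostly through their seed, whereas piRNAs bind PIWI proteins and are best known for silencing transposons in the germline. Small RNA libraries also catch fragments of longer RNAs such as ribosomal RNA (rRNA), small nuclear RNA (snRNA), which acts in splicing, and small nucleolar RNA (snoRNA), which guides chemical modification of other RNAs.

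No feature passed the threshold, an adjusted p of at most 0.05, between MC and MS in the quasi-likelihood F-test of edgeR with Benjamini-Hochberg adjustment. Of 1393 features tested, 0 were called (0.0%), and the smallest adjusted p of edgeR was 0.403. At an unadjusted p under 0.05 the same test gave 153 features (11.0%), of which 121 were higher in MC (8.69%) and 32 were lower (2.3%). The last pair of shares is the background for the counts at an unadjusted p given below. DESeq2, run as an alternative, called 32 features, of which 13 were families of plant miRNAs, described below, that were high in MC 16 and MC 17 and not in MC 20. The mature miRNAs that separated the groups most are therefore described by their values, and their sequences are shown first because the seed is what defines which mRNAs a miRNA can pair with. Values are normalised CPM, which are counts per 1000000 of the effective library size that edgeR derived by its TMM method.

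The following mature sequences, written 5′ to 3′ and taken from RefSeq (GRCm38.p6), belong to the 12 miRNAs named for MC values above all MS values. Capitals mark the seed, bases 2 to 8. Of the 746 mature miRNAs tested, 636 matched an entry by name.
mmu-miR-29b-1-5p: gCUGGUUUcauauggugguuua
mmu-miR-702-3p: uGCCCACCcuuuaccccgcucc
mmu-miR-329-5p: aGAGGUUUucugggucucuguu
mmu-miR-1981-5p: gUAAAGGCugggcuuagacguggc
mmu-miR-323-5p: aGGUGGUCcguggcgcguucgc
mmu-miR-221-5p: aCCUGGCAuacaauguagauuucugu
mmu-miR-1198-5p: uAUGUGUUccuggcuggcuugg
mmu-miR-138-5p: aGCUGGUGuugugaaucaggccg
mmu-miR-361-5p: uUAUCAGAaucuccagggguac
mmu-miR-543-5p: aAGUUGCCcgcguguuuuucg
mmu-miR-337-5p: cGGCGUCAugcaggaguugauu
mmu-let-7d-5p: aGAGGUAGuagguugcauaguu

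The next sequences, in the same notation, belong to miRNAs whose MC values all lay below the MS values. The seed of mmu-miR-30a-3p and that of mmu-miR-30e-3p are the same; mmu-miR-132-3p is shown with mmu-miR-212-3p, its partner from the same transcript, which has the same seed and is described with it below.
mmu-miR-125b-2-3p: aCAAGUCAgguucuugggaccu
mmu-miR-30a-3p: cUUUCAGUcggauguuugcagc
mmu-miR-30e-3p: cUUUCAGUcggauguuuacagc
mmu-miR-126a-3p: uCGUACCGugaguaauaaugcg
mmu-miR-342-3p: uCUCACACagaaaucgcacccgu
mmu-miR-132-3p: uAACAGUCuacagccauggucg
mmu-miR-212-3p: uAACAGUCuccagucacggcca

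Total counts, in units of 1000000, were 11.0, 10.0 and 10.4 in MS 3, MS 4 and MS 23. They were 7.77, 7.97 and 10.9 in MC 16, MC 17 and MC 20. MC 20 lay inside the MS range and the other MC libraries below it, with p = 0.3 in an exact two-sided permutation test (n = 3 against 3). With 3 libraries a side this test cannot go below 0.1. No pair of the 6 libraries was alike enough to be one library deposited again. In these bulk libraries fewer cells of a type and less RNA per cell cannot be told apart.

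Several libraries stood apart, and each is named beside the results that it moved. MC 16 had the lowest correlations with the other libraries (r = 0.873 to 0.909 across 345 miRNAs, which are not independent replicates). Its deviation from the other libraries also ran with the GC content of the miRNA (r = 0.606 across the 298 of these miRNAs that have a sequence), against -0.329 to 0.0583 in the other 11 libraries. MC 16 held the highest of the 6 values for 40.6% of all features tested and for 114 of the 121 features that were higher in MC at an unadjusted p under 0.05. Without MC 16, 1 feature was called by edgeR with Benjamini-Hochberg adjustment. At an unadjusted p under 0.05 there were then 77 features, 47 higher and 30 lower in MC. The part of this library in the results was not tested beyond leaving it out.

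A further split ran through the MC group. Over the 125 miRNA precursor families tested, the deviations of MC 16 and MC 17 correlated at r = 0.892, whereas MC 20 correlated with MC 16 at -0.691 and with the MS libraries at 0.521 to 0.652. By these profiles MC 16 and MC 17 grouped with CS 10, and MC 20 grouped with the 3 MS libraries, SS 13 and SS 14. The grouping came from the measured profiles and is not a batch that the labels name. Without MC 16 and MC 17 together, which leaves MC 20 as the single MC library, 40 features had an unadjusted p under 0.05 by edgeR (25 higher, 15 lower), and with the library set as a covariate 28 did (14 higher, 14 lower).

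The split was plainest in Rfam families of plant miRNAs, such as MIR398 and MIR167_1, which have no mouse gene. Those of them that were tested were among the precursor families whose profiles gave the split. They helped to define it and are no separate sign of it. Whether the split stands without the plant families was not tested. These 25 families were singled out after their values were seen. Their summed level was 3.88, 3.05 and 4.61 CPM in MS 3, MS 4 and MS 23. It was 8586 CPM in MC 16 and 5454 CPM in MC 17, but 3.41 CPM in MC 20. Thus MC 20 lay among the MS libraries while the other MC libraries lay far higher, and CS 10, of a group given no methionine, held 6064 CPM. MIR398 alone stood at 0.277, 0.0847 and 0.0960 CPM in MS and at 2550, 1661 and 0.0812 CPM in MC. Where these reads came from was not tested, including whether MC 16, MC 17 and CS 10 carry material of another library run. Of the 19 plant families tested, 16 were among the 19 precursor families that were higher in MC at an unadjusted p under 0.05.

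Of the 125 precursor families tested, 13 were lower in MC at an unadjusted p under 0.05 (10.4%, against 2.3% of all features), and 19 had all MC values below all MS values, where 5.1% of all features did. Without MC 16, 9 were lower, and without MC 16 and MC 17, which leaves MC 20 as the only MC library, 2 were. The mir-30 precursor family (RF00131) stood at 664, 779 and 699 CPM in MS and at 341, 526 and 457 CPM in MC, so that all 3 MC libraries were lower. The mir-135 precursor family (RF00246) stood at 134, 25.9 and 131 CPM in MS and at 6.71, 16.5 and 23.7 CPM in MC, where MS 4 lay near the MC libraries. These families were chosen for naming after their values were seen.

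**Figure D1:**
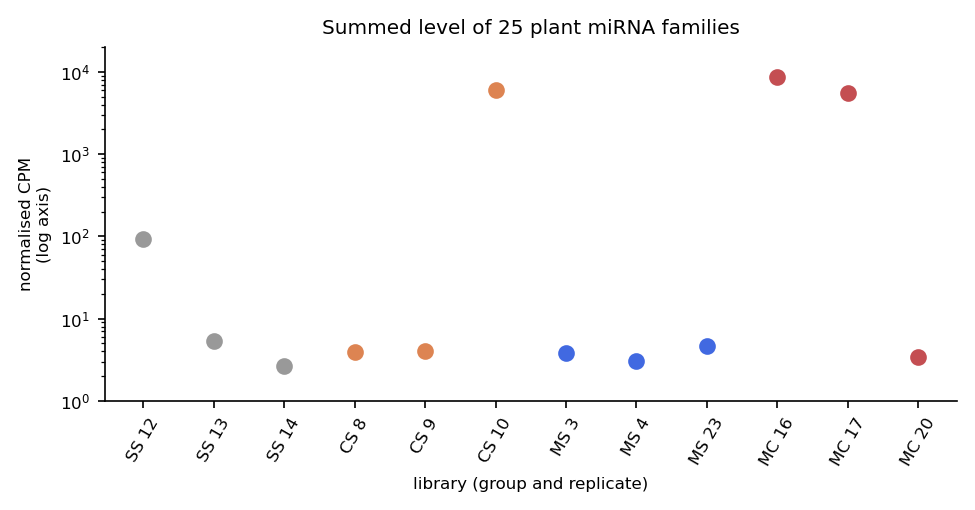
Summed normalised CPM on 25 plant miRNA families (vertical log axis) in each of the 12 libraries (horizontal axis). MC 16, MC 17 and CS 10 lie between 5454 and 8586 CPM, SS 12 at 94.0 CPM and the other 8 libraries between 2.69 and 5.39 CPM.

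Mature miRNA, the largest class, made up 65.9%, 59.5% and 63.6% of counts in MS 3, MS 4 and MS 23. In MC 16, MC 17 and MC 20 its share was 56.0%, 60.6% and 59.3%. The groups overlapped (exact permutation p = 0.2), and when the share was taken of annotated small RNA counts only, the difference turned from -4.38 to 0.812 percentage points.

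Reads within introns took a larger share in MC than in MS. They took 3.86%, 4.00% and 3.63% of counts in the MS libraries and 5.26%, 5.07% and 5.26% in the MC libraries. The means were 3.83% ± 0.188 (SD, n = 3) and 5.19% ± 0.109 (SD, n = 3). Every MC library lay above every MS library. The exact two-sided permutation p was 0.1, the smallest that the design allows, and 0.378 after Benjamini-Hochberg adjustment over 17 classes. SS and CS libraries, given no methionine, lay between 4.19% and 4.98%, so that by share of total counts the MS libraries were the lowest of the 12 and the MC libraries the highest. With TMM factors the intron level was 39094, 33909 and 36156 CPM in MS and 68449, 46356 and 46589 CPM in MC. The groups still lay apart, but MC 16 stood far above the other MC libraries. On this scale the SS and CS libraries ran from 34597 to 54910 CPM, so that SS 12, SS 13 and CS 10 lay above MC 17 and MC 20, and CS 8 lay below MS 3 and MS 23. The log2 fold change was 0.56 ± 0.21 (SE, unadjusted p of 0.024 and adjusted p of 0.440, edgeR with Benjamini-Hochberg), and 0.35 without MC 16.

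Predicted piRNAs, miRNA precursors and snRNA were the other classes shown here whose groups did not overlap. Predicted piRNAs held 0.0933%, 0.109% and 0.127% of counts in MS and 0.191%, 0.134% and 0.133% in MC. Precursor families held 14.3%, 15.8% and 15.2% in MS and 9.84%, 14.3% and 13.5% in MC. Each gave an exact permutation p of 0.1. In both, MC 16 was the farthest from the MS libraries, and MC 17 and MC 20 lay close to the nearest MS value.

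The share of rRNA and that of known piRNAs overlapped. Reads on rRNA families took 0.0419%, 0.0511% and 0.0970% in MS and 0.315%, 0.202% and 0.0871% in MC (exact permutation p = 0.2). Known piRNAs took 0.240%, 0.354% and 0.238% in MS and 0.544%, 0.280% and 0.493% in MC (exact permutation p = 0.2). MC 20 fell inside the MS range for rRNA, and MC 17 fell inside it for known piRNAs.

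**Figure D2:**
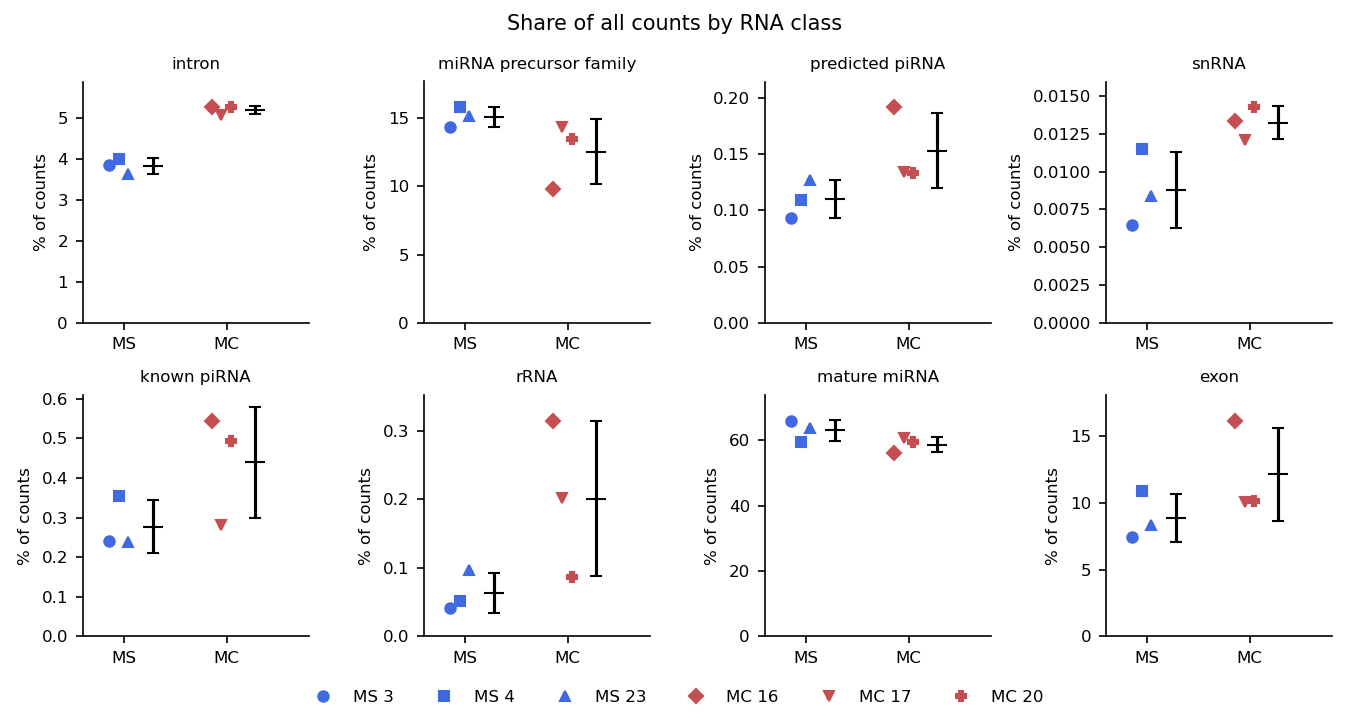
Share of all counts (vertical axis, percent, from 0) in 8 RNA classes for the MS libraries (blue) and MC libraries (red), 1 symbol per library, with the mean and SD of each group as black bars. Intron reads lie at 3.63% to 4.00% in MS and at 5.07% to 5.26% in MC, whereas the rRNA, mature miRNA, known piRNA and exon shares overlap.

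**Figure D3:**
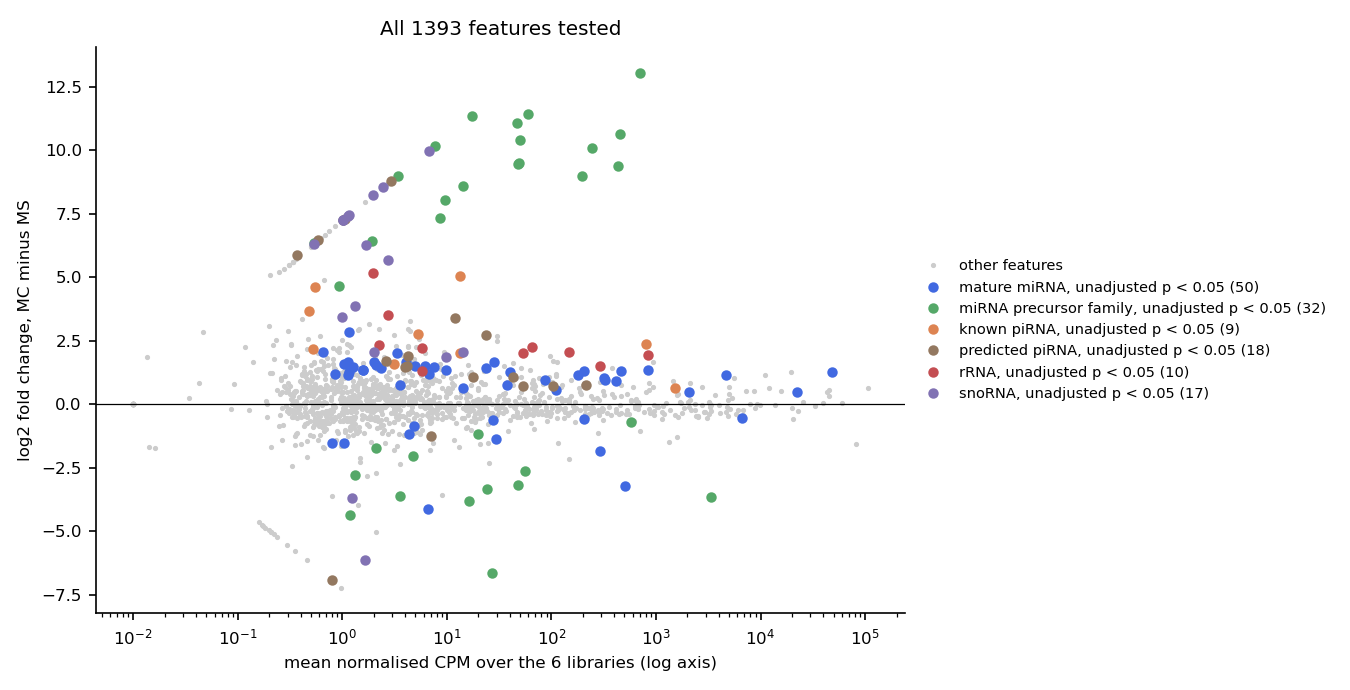
Log2 fold change of MC minus MS (vertical axis) against the mean normalised CPM of the 6 libraries (horizontal log axis) for the 1393 features tested, with means under 0.01 drawn at 0.01. Coloured points have an unadjusted p under 0.05 in edgeR and belong to 6 classes; the precursor families far above the other points are plant families, and rRNA families (red) all lie above 0.

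Mature miRNAs were centred near 0. Of 746 tested, 39 were higher (5.23%, against 8.69% of all features) and 11 were lower (1.47%, against 2.3%) in MC at an unadjusted p under 0.05, and 384 lay above 0, where 55.5% of all features did. Their median log2 fold change was 0.03, against 0.10 over all features. For 39 miRNAs all 3 MC values lay above all 3 MS values, and for 27 they lay below, where the background over all features was 7.54% above and 5.1% below. Scaled by library totals alone, the counts were 43 and 20, against 7.54% and 4.59% of all features. In 37 of the 39 higher miRNAs MC 16 held the highest value. Without MC 16, 13 were higher and 7 were lower.

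The 12 miRNAs named above had a median GC content of 53.5% (38.5% to 72.7%), and the 8 of 10 named below that have a sequence had 50.0% (45.5% to 59.1%). The median over the 298 miRNAs of at least 10 CPM with a sequence was 47.6%. Among these, the 102 miRNAs of highest GC content (at least 52.4%) had a median log2 fold change of 0.31, and the 105 of lowest GC content (at most 43.5%) had -0.11. Without MC 16 the medians were 0.08 and 0.14, and the correlation of GC content with the fold change across miRNAs went from 0.331 to -0.130.

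mmu-miR-29b-1-5p had the smallest unadjusted p of the named miRNAs. It comes from the passenger side of a hairpin of the miR-29 family, whose guide strands target collagen and DNA methyltransferase mRNAs. Its gene lies on chr6:31063023-31063093 (minus strand, GRCm38) and overlaps an exon of the long non-coding RNA Gm27019. It stood at 14.4, 13.6 and 12.1 CPM in MS and at 94.9, 17.5 and 15.6 CPM in MC. This gave a log2 fold change of 1.67 ± 0.60 (SE), with an unadjusted p of 0.018 and an adjusted p of 0.440 (edgeR, Benjamini-Hochberg). The groups did not overlap, but MC 17 and MC 20 lay close to the MS values, and without MC 16 the log2 fold change was 0.31. SS and CS libraries held 15.1 to 25.5 CPM, all above the MS libraries.

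Most of the other named miRNAs had the same shape, with MC 16 far from the rest. mmu-miR-702-3p, whose hairpin lies in Plod3 and overlaps an exon at least in part (chr5:136991433-136991541, plus strand), stood at 8.49, 14.4 and 16.2 CPM in MS and at 62.5, 21.6 and 20.2 CPM in MC. mmu-miR-1981-5p, from an intron of Marc2 (chr1:184822407-184822488, minus strand), stood at 269, 271 and 266 CPM in MS and at 1341, 357 and 291 CPM in MC. mmu-miR-1198-5p, from an intron of Gripap1 (chrX:7807101-7807221, plus strand), stood at 229, 221 and 219 CPM in MS and at 802, 252 and 249 CPM in MC. In all 3 MC 17 and MC 20 lay above the MS libraries by far less than MC 16 did. mmu-let-7d-5p showed 6936, 6983 and 7248 CPM in MS and 14920, 8560 and 7302 CPM in MC, so that MC 20 barely cleared the highest MS value. For mmu-miR-1198-5p and mmu-let-7d-5p every SS and CS library also lay above every MS library.

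4 of the 12 miRNAs came from the imprinted Dlk1-Dio3 cluster on chromosome 12, a large group of miRNA genes expressed from the maternal allele and abundant in neurons. mmu-miR-323-5p (chr12:109712508-109712593) stood at 107, 102 and 139 CPM in MS and at 584, 144 and 143 CPM in MC. mmu-miR-337-5p (chr12:109585789-109585885) stood at 321, 369 and 350 CPM in MS and at 1004, 377 and 379 CPM in MC. Again MC 16 was far higher, and MC 17 and MC 20 lay just above the highest MS value, and for mmu-miR-337-5p the groups overlapped when scaled by library totals alone. mmu-miR-329-5p (chr12:109713481-109713577) stood at 26.6, 27.5 and 30.4 CPM in MS and at 63.2, 32.3 and 47.4 CPM in MC, with a log2 fold change of 0.76 that was 0.50 without MC 16.

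mmu-miR-543-5p, the last of these (chr12:109717258-109717333, plus strand), differed in that the 3 MC libraries were close together. It stood at 148, 172 and 170 CPM in MS and at 230, 207 and 216 CPM in MC. Its log2 fold change came to 0.41 ± 0.19 (SE), with an unadjusted p of 0.054 and an adjusted p of 0.440 (edgeR, Benjamini-Hochberg). It was 0.37 without MC 16 and 0.40 without MC 16 and MC 17. SS libraries stood at 215, 214 and 215 CPM and CS libraries at 197, 176 and 171 CPM, so that MC lay around the SS values and MS at or below the CS values. DESeq2 called it, with an adjusted p of 0.00944, but when counts were scaled by library totals alone the MC and MS values overlapped.

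The whole cluster did not share this. Of its 92 members tested, 5 were higher at an unadjusted p under 0.05 (5.43%, against 8.69% of all features) and 0 were lower, 49 lay above 0, and their median log2 fold change was 0.02. Those 5 were mmu-miR-323-5p, mmu-miR-329-5p, mmu-miR-485-5p, mmu-miR-667-5p and mmu-miR-770-3p. mmu-miR-485-5p, the most abundant of them, stood at 439, 416 and 565 CPM in MS and at 2531, 538 and 561 CPM in MC. MC 17 and MC 20 lay inside the MS range, but above it when scaled by library totals alone. Without MC 16 the log2 fold change of mmu-miR-485-5p was 0.22 instead of 1.35. The abundant mmu-miR-127-3p of the same cluster stood at 8818, 9418 and 9851 CPM in MS and at 23702, 11657 and 8674 CPM in MC, and the groups overlapped.

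The remaining named miRNAs were mmu-miR-221-5p, mmu-miR-361-5p and mmu-miR-138-5p. mmu-miR-221-5p (chrX:19146294-19146388, minus strand), from a hairpin whose other arm is known as a growth-promoting miRNA, stood at 13.8, 9.07 and 10.8 CPM in MS and at 15.6, 17.5 and 18.5 CPM in MC. MC 16 was the lowest of the MC libraries here, and the log2 fold change was 0.62 ± 0.26 (SE), with an unadjusted p of 0.036 and an adjusted p of 0.440 (edgeR, Benjamini-Hochberg), and 0.69 without MC 16. SS and CS libraries held 14.9 to 19.2 CPM, so that the MS libraries were the lowest 3 of the 12. mmu-miR-361-5p, from an intron of Chm (chrX:113074824-113074893, minus strand), stood at 99.3, 87.5 and 85.8 CPM in MS and at 146, 139 and 112 CPM in MC. mmu-miR-138-5p, a neuronal miRNA with hairpins on chromosomes 8 and 9 that acts on dendritic spine size, stood at 18953, 18637 and 18260 CPM in MS and at 32481, 20049 and 24606 CPM in MC. On counts scaled by library totals alone, mmu-miR-221-5p and mmu-miR-138-5p overlapped between the groups.

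mmu-miR-125b-2-3p had the smallest unadjusted p of the 10 miRNAs of at least 10 CPM whose MC values all lay below the MS values. It is the passenger strand of a hairpin of the neuronal miR-125b family, at chr16:77646318-77646339 (plus strand) in an intron of the non-coding host gene Mir99ahg. It stood at 35.9, 30.6 and 34.7 CPM in MS and at 18.1, 24.9 and 22.4 CPM in MC. All 3 MC libraries were lower, MC 16 the most, and the groups lay apart. This gave a log2 fold change of -0.63 ± 0.24 (SE), with an unadjusted p of 0.026 and an adjusted p of 0.440 (edgeR, Benjamini-Hochberg). It was -0.51 without MC 16 and -0.59 without MC 16 and MC 17. SS and CS libraries held 18.4 to 25.9 CPM, close to the MC range, so that the MS libraries were the highest 3 of the 12. DESeq2 called this miRNA in MC against MS, with an adjusted p of 0.0159.

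The pair that shares a seed, mmu-miR-30a-3p and mmu-miR-30e-3p, was lower in each MC library. mmu-miR-30a-3p (chr1:23272269-23272339, plus strand, outside annotated host genes) stood at 272, 256 and 205 CPM in MS and at 145, 178 and 170 CPM in MC, a log2 fold change of -0.57 with an unadjusted p of 0.045 in edgeR. mmu-miR-30e-3p, from an intron of Nfyc (chr4:120772606-120772697, minus strand), stood at 161, 126 and 112 CPM in MS and at 70.2, 98.5 and 109 CPM in MC. For the first the groups lay apart under both scalings. For the second MC 20 nearly reached MS 23, and the groups overlapped when scaled by totals alone.

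mmu-miR-126a-3p, the abundant endothelial miRNA encoded within Egfl7 (chr2:26591357-26591429, plus strand), stood at 8902, 7710 and 7007 CPM in MS and at 3615, 6314 and 6495 CPM in MC. MC 16 was far lower and the others were just below MS 23, and the groups overlapped when scaled by totals alone. The other arm, mmu-miR-126a-5p, stood at 571, 670 and 642 CPM in MS and at 255, 656 and 541 CPM in MC and overlapped. Over the list of 12 endothelial and vascular wall miRNAs tested, 1 was lower and 0 were higher at an unadjusted p under 0.05, and 7 lay above 0.

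Of the other 6 miRNAs of the 10, mmu-miR-132-3p is described below, and 5 were mmu-miR-222-5p, mmu-miR-342-3p, mmu-miR-344-3p, mmu-miR-491-5p and mmu-miR-3065-3p, with log2 fold changes of -0.54 to -0.29 and unadjusted p from 0.147 to 0.302 (edgeR). mmu-miR-342-3p, from an intron of Evl (chr12:108658620-108658718, plus strand) and known from leukocytes and brain, stood at 1444, 1190 and 1150 CPM in MS and at 940, 1023 and 1128 CPM in MC. These groups were apart on the normalised scale but overlapped when scaled by totals alone, as did mmu-miR-222-5p, mmu-miR-344-3p, mmu-miR-491-5p and mmu-miR-3065-3p.

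**Figure D4:**
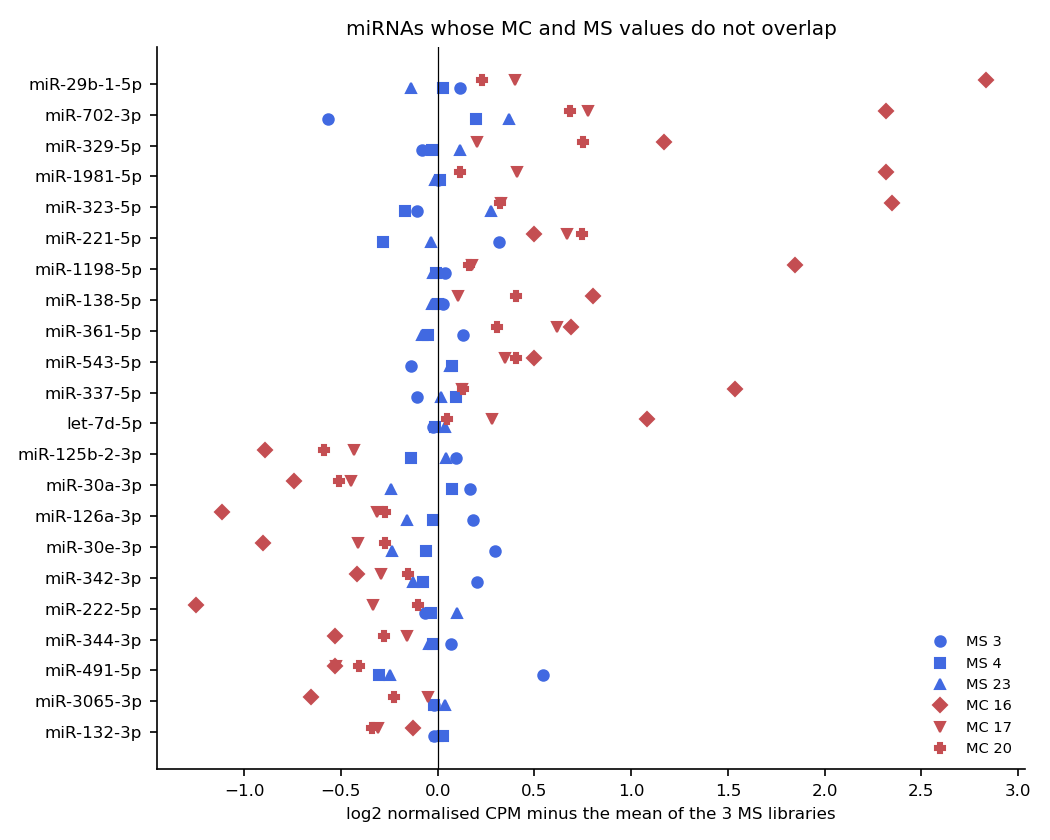
Log2 normalised CPM of each library minus the mean of the 3 MS libraries (horizontal axis) for the 22 named miRNAs. These had a mean of at least 10 CPM and no overlap between MC and MS values. Up to 12 were taken in each direction, by smallest p. MC 16 (red diamonds) lies farthest to the right for most of the upper 12, whereas mmu-miR-221-5p and mmu-miR-543-5p show 3 MC libraries close together.

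Among activity-regulated miRNAs, whose transcription follows neuronal firing, 0 of 9 tested had an unadjusted p under 0.05 and the median log2 fold change was 0.08. mmu-miR-132-3p, a CREB-induced miRNA that promotes dendrite growth (chr11:75173682-75173747, plus strand), stood at 331, 341 and 334 CPM in MS and at 307, 271 and 265 CPM in MC. Its groups lay apart under both scalings, but the SE over all 12 libraries was large, with a log2 fold change of -0.26 ± 0.57 and an unadjusted p of 0.662 in edgeR. mmu-miR-212-3p, of the same seed and transcript, stood at 1988, 2130 and 1881 CPM in MS and at 2408, 2326 and 2044 CPM in MC. MC 20 lay inside the MS range, and the log2 fold change was 0.18 ± 0.20 (SE) with an unadjusted p of 0.404 in edgeR. mmu-miR-132-5p overlapped, at 3359, 3607 and 3258 CPM in MS and 2562, 2627 and 4231 CPM in MC.

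Of 24 miRNAs that have been studied in cocaine models, 1 was higher and 0 were lower at an unadjusted p under 0.05, and their median was -0.02. The one was mmu-miR-206-3p, a muscle miRNA at a level near 1 CPM, which stood at 0.554, 1.10 and 0.960 CPM in MS and at 4.19, 1.49 and 1.22 CPM in MC. mmu-miR-9-5p stood at 42745, 36198 and 38656 CPM in MS and at 20038, 49162 and 53095 CPM in MC. mmu-miR-181a-5p stood at 25059, 25846 and 22683 CPM in MS and at 32350, 22733 and 23464 CPM in MC. MC 16 was thus the lowest for the one and the highest for the other, and both overlapped between the groups.

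mmu-miR-124-3p, an abundant neuronal miRNA, varied more within MS than between the groups. It stood at 170257 CPM in MS 3, 30162 CPM in MS 4 and 171148 CPM in MS 23. In MC it stood at 60351, 35412 and 29405 CPM. The log2 fold change was -1.57 ± 0.77 (SE) with an unadjusted p of 0.067 in edgeR, and MS 4 lay at the level of the MC libraries. Adding the reads assigned to the miR-124 precursor family, the sums were 228291, 83046 and 238704 CPM in MS and 142768, 92397 and 76355 CPM in MC.

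Several members of the let-7 family, which represses growth and cell cycle genes in mature cells, were far higher in MC 16 than in the other libraries. mmu-let-7c-5p stood at 25686, 27149 and 32914 CPM in MS and at 151046, 32025 and 23802 CPM in MC. Its log2 fold change of 1.27 (unadjusted p of 0.048 in edgeR) was -0.034 without MC 16. mmu-let-7e-5p stood at 2882, 3213 and 2653 CPM in MS and at 12780, 3482 and 3212 CPM in MC, and its value of 1.15 was 0.20 without MC 16. Of 21 members of the let-7 and miR-98 list tested, 3 were higher (mmu-let-7c-5p, mmu-let-7e-5p and mmu-let-7j) and 1 was lower (mmu-let-7i-3p) at an unadjusted p under 0.05, and the median was 0.00. mmu-let-7i-5p did not follow, at 8269, 7832 and 7763 CPM in MS and 7429, 8479 and 7912 CPM in MC. The let-7 precursor family (RF00027) went the other way, at 8195, 1055 and 9247 CPM in MS and at 664, 341 and 475 CPM in MC, with a log2 fold change of -3.64 ± 1.08 (SE) and an unadjusted p of 0.0066 in edgeR. All 3 MC libraries lay below all MS libraries, and MS 4 lay nearer to MC than to the other MS libraries. Without MC 16 it was -3.92.

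miRNAs named with DNA methylation enzymes, the miR-29 and miR-148 families and their relatives, numbered 8 tested, and 0 had an unadjusted p under 0.05. None of the 8 lay above 0, where 55.5% of all features did, and the median was -0.33. The summed level of the 11 detected was 6597, 9020 and 7314 CPM in MS and 2573, 7574 and 6816 CPM in MC. On this sum MC 16 was low and MC 17 and MC 20 lay inside the MS range. mmu-miR-29a-3p stood at 4750, 6772 and 5323 CPM in MS and at 1995, 5375 and 4852 CPM in MC. mmu-miR-29b-3p, which comes from the hairpin of mmu-miR-29b-1-5p and from a further hairpin on chromosome 1, stood at 282, 285 and 331 CPM in MS and at 69.6, 400 and 298 CPM in MC. MC 16 alone was low, and MC 17 and MC 20 lay inside or above the MS range. MC 16 held the highest of the 6 values for mmu-miR-29b-1-5p and the lowest for mmu-miR-29b-3p, which is not read from that hairpin alone. Adding the reads assigned to the miR-29 precursor family, mature and precursor miR-29 reads summed to 29361, 36152 and 30787 CPM in MS. In MC they summed to 9391, 28550 and 28509 CPM. On this sum all MC libraries lay below all MS libraries, MC 17 and MC 20 narrowly.

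The study names mmu-miR-330-5p, mmu-miR-340-3p and mmu-miR-224-5p, which were chosen on these samples and so are no independent list. It took them as higher in CS than SS and lower in MC than CS, and mmu-miR-330-5p also as higher in MS than SS. MC against MS was not among those comparisons, so the values here are no check of them. In MC against MS 0 of the 3 had an unadjusted p under 0.05 in edgeR. mmu-miR-330-5p stood at 1014, 823 and 901 CPM in MS and at 914, 702 and 794 CPM in MC. mmu-miR-340-3p stood at 166, 149 and 130 CPM in MS and at 57.0, 134 and 168 CPM in MC, and mmu-miR-224-5p was at 0.335 to 2.19 CPM in the 6 libraries. Each overlapped between the groups on the normalised scale. On counts scaled by library totals alone, the MC values of mmu-miR-330-5p all lay below its MS values. mmu-miR-330-3p, the opposite arm of mmu-miR-330-5p, was listed here in addition and stood at 98.8, 113 and 121 CPM in MS and at 452, 173 and 120 CPM in MC. These groups overlapped too on the normalised scale, but lay apart, with MC above MS, when scaled by library totals alone. The log2 fold change of 1.17 ± 0.47 (SE, unadjusted p of 0.032 in edgeR) was 0.41 without MC 16 and 0.12 without MC 16 and MC 17. Over 7 members of the miR-34 and miR-449 families, known as targets of p53, 0 had an unadjusted p under 0.05.

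Of 62 known piRNAs tested, 46 lay above 0, where 55.5% of all features did. At an unadjusted p under 0.05, 9 were higher and 0 were lower in MC, against 8.69% and 2.3% of all features, and the median log2 fold change was 0.63, against 0.10 over all features. Without MC 16, 44 still lay above 0 and 3 had an unadjusted p under 0.05, with a median of 0.46. The deposited counts allowed 1 mismatch to the piRNA sequence, and known piRNA names can share sequence with fragments of other RNAs, so the identity of these reads is uncertain.

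mmu_piR_018323 stood at 0.831, 1.69 and 1.44 CPM in MS and at 18.1, 6.19 and 3.41 CPM in MC. The groups lay apart, with MC 16 the highest and MC 20 nearest to MS. Its log2 fold change was 2.78 ± 0.75 (SE), with an unadjusted p of 0.0037 and an adjusted p of 0.440 (edgeR, Benjamini-Hochberg). Without MC 16 the value was 1.85. SS and CS libraries held 1.88 to 8.89 CPM, all above the MS libraries.

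mmu_piR_000958 stood at 0.923, 0.424 and 0.960 CPM in MS and at 48.3, 26.0 and 3.73 CPM in MC. It showed the order of the precursor split, with MC 16 and MC 17 far above MC 20, which still lay above MS. The log2 fold change was 5.06 ± 1.40 (SE; unadjusted p of 0.0044 and adjusted p of 0.440, edgeR with Benjamini-Hochberg), and it was 2.27 without MC 16 and MC 17. The abundant mmu_piR_000273 stood at 1230, 1206 and 1123 CPM in MS and at 2228, 1247 and 2092 CPM in MC. Here MC 17 was the library that nearly reached MS, and the log2 fold change of 0.65 was 0.49 without MC 16.

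Predicted piRNAs, which the study's pipeline placed at repeat loci, numbered 219 tested, of which 16 were higher (7.31%, against 8.69% of all features) and 2 were lower (0.913%, against 2.3%) at an unadjusted p under 0.05. Their median log2 fold change was 0.29, or 0.54 with the 29 that were at 0 throughout 1 group set at their bound and the 27 at or under 3 counts in both groups left out. Without MC 16 the split was 4 higher and 6 lower and the fitted median was 0.00, and with classes fitted separately the median was 0.0086. They came from 74 loci, 23 of which held 3 or more, so that neighbours are not independent. 11 of the 74 loci, with 40 of the 219 predicted piRNAs, overlapped annotated miRNA genes.

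The locus with the most members was an ERVL-MaLR long terminal repeat at chr2:27400951-27402008 (plus strand, mm10 as the submitters' processing notes name it), on the strand opposite to Vav2 within an intron and overlapping the miRNA gene Gm24049 on the same strand. All its predicted piRNAs, of which 18 were tested, summed to 45.0, 56.9 and 53.0 CPM in MS and to 380, 51.4 and 73.8 CPM in MC. MC 16 was several times higher, MC 17 lay inside the MS range and MC 20 just above it. 4 of the 18 were higher and 0 were lower at an unadjusted p under 0.05. Among them novel_pir595 stood at 1.48, 2.46 and 1.44 CPM in MS and at 13.6, 3.33 and 3.33 CPM in MC.

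A locus on chromosome 5 showed the opposite side. At chr5:57215739-57215800 (plus strand, an ERVK repeat outside annotated genes) all predicted piRNAs, of which 11 were tested, summed to 58.1, 72.0 and 77.4 CPM in MS. In MC they summed to 28.3, 46.6 and 43.2 CPM. The groups did not overlap, 1 of the 11 lay above 0, and 2 were lower at an unadjusted p under 0.05. novel_pir679 stood at 10.7, 6.95 and 12.2 CPM in MS and at 3.02, 5.28 and 4.30 CPM in MC. Its log2 fold change was -1.24 ± 0.49 (SE; unadjusted p of 0.030 and adjusted p of 0.440, edgeR with Benjamini-Hochberg), and it was -1.05 without MC 16 and -1.21 without MC 16 and MC 17. novel_pir673 stood at 15.1, 24.4 and 20.1 CPM in MS and at 7.54, 11.8 and 12.0 CPM in MC. In both, all 3 MC libraries were lower.

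The ERVL-MaLR locus at chr5:17118211-17118485 (minus strand) held 15 tested predicted piRNAs. All predicted piRNAs there summed to 119, 96.4 and 125 CPM in MS and 243, 131 and 146 CPM in MC. The MC libraries lay above, MC 17 narrowly. Single members differed in direction, since novel_pir701 of this locus stood at 5.81, 7.12 and 7.20 CPM in MS and at 4.02, 4.82 and 4.22 CPM in MC. novel_pir692, also of this locus, had 0 counts in each MS library and in MC 16, against 11 in MC 17 and 12 in MC 20. It was the 1 feature called without MC 16 (adjusted p of 0.0292, edgeR with Benjamini-Hochberg). Over the group totals MC was at least 9.02-fold higher than the floor of 3 counts in MS, and SS and CS libraries had 10 to 32 counts. A feature missing from a library's deposited file was given 0, and whether each predicted piRNA was looked for in every library is not given in the sources used here.

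Other predicted piRNAs were at 0 throughout one group. novel_pir669, of the ERVK locus above, had 17, 23 and 13 counts in MS and 0 in each MC library, so that MC was at least 15.0-fold lower. It was also at 0 in SS 13, SS 14 and CS 9 and had 13, 12 and 10 counts in SS 12, CS 8 and CS 10, so that zeros occurred within those groups too. novel_pir568 had 87, 11 and 22 counts in MC and 0 in the other 9 libraries, so that MC was at least 47.1-fold higher than MS. It reached the minimum count for testing through the MC libraries alone. Its separation from MS was therefore fixed by that minimum and is no evidence of a difference. Both bounds set the group at 0 to 3 counts in all and use library totals. At an ERV1 repeat at chr11:57559807-57559926 (minus strand), novel_pir189 stood at 1.29, 1.10 and 1.25 CPM in MS and at 6.03, 3.33 and 2.60 CPM in MC, with a log2 fold change of 1.70 that was 1.28 without MC 16. SS and CS libraries held 2.26 to 6.34 CPM of novel_pir189, all above the MS libraries.

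Fragments of rRNA were higher in MC in each family. All 10 families tested had an unadjusted p under 0.05 by edgeR, and 8 had MC values above all MS values, where 7.54% of all features did, with a median log2 fold change of 2.15. Whether the 10 families are independent of each other was not tested. Without MC 16, 5 had an unadjusted p under 0.05 and all 10 lay above 0, with a median of 1.45. Without MC 16 and MC 17, where MC 20 alone stands for MC and is assumed to vary like the other groups, 9 of 10 lay above 0 with a median of 0.71, and 0 had an unadjusted p under 0.05.

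The eukaryotic large subunit rRNA (RF02543) stood at 48.8, 55.6 and 67.4 CPM in MS and at 408, 193 and 116 CPM in MC. The MC libraries were all higher, in the order MC 16, MC 17 and MC 20. The log2 fold change was 2.06 ± 0.59 (SE; unadjusted p of 0.0054 and adjusted p of 0.440, edgeR with Benjamini-Hochberg), and DESeq2 called it with an adjusted p of 0.0257. SS libraries stood at 262, 80.2 and 65.8 CPM and CS libraries at 160, 180 and 263 CPM, so that SS 12 and every CS library lay above MC 20. The 5.8S rRNA stood at 139, 177 and 136 CPM in MS and at 855, 238 and 196 CPM in MC. The 5S rRNA stood at 0.369, 0.508 and 0.384 CPM in MS and at 8.05, 6.31 and 0.812 CPM in MC. For the eukaryotic small subunit rRNA, the most abundant, MS 23 at 695 CPM lay above MC 20 at 376 CPM, and the groups overlapped.

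Some Rfam families carry the names of bacteria, and those given here were chosen after their values were seen. The bacterial small subunit rRNA family stood at 19.3, 16.9 and 31.5 CPM in MS and at 183, 103 and 37.7 CPM in MC. The betaproteobacterial transfer-messenger RNA family (RF01850) stood at 15.1, 21.9 and 25.5 CPM in MS and at 95.2, 41.5 and 57.9 CPM in MC. Its log2 fold change was 1.63 ± 0.41 (SE), with an unadjusted p of 0.0024 and an adjusted p of 0.440 (edgeR, Benjamini-Hochberg). All 3 MC libraries lay above all MS libraries, and the value was 1.25 without MC 16. RF01677, named for a Pseudomonas small RNA, stood at 3.23, 3.22 and 2.78 CPM in MS and at 0.168, 0.229 and 0.812 CPM in MC, and all 3 MC libraries lay below all MS libraries (log2 fold change -2.82, unadjusted p of 0.0085 in edgeR). The 49 tested families of the class that holds RF01850 and RF01677 included 8 higher (16.3%, against 8.69% of all features) and 3 lower (6.12%, against 2.3%) at an unadjusted p under 0.05. Such names are those of the Rfam models to which short reads were assigned and do not establish the organism of the reads.

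**Figure D5:**
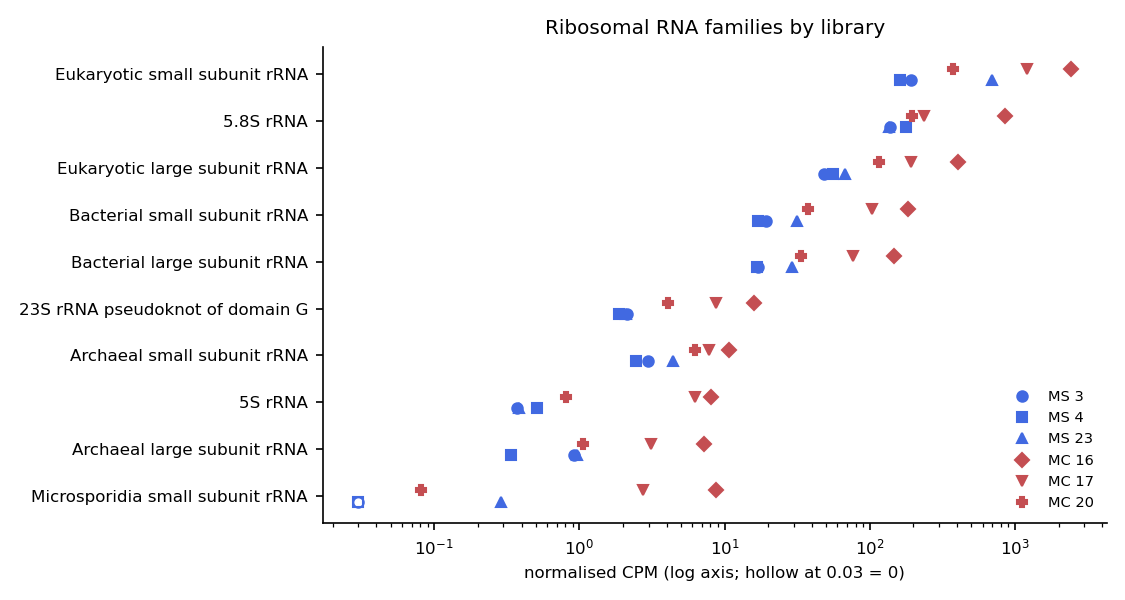
Normalised CPM (horizontal log axis) of the 10 rRNA families in the 3 MS libraries (blue) and 3 MC libraries (red), with hollow symbols at the left edge for 0. In each family MC 16 is the highest, and MC 20 is the lowest MC library, the nearest to MS.

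Among snRNAs, U6, the catalytic core of the spliceosome, stood at 48.5, 71.8 and 62.6 CPM in MS and at 136, 84.5 and 100.3 CPM in MC. The groups lay apart under both scalings. SS and CS libraries held 74.3 to 116 CPM of U6, so that every MS library lay below every SS and CS library. U6 gave a log2 fold change of 0.81 ± 0.28 (SE; unadjusted p of 0.015 and adjusted p of 0.440, edgeR with Benjamini-Hochberg), 0.60 without MC 16 and 0.72 without MC 16 and MC 17. U2, which binds the branch point of introns, stood at 5.72, 6.70 and 10.2 CPM in MS and at 21.3, 18.2 and 9.82 CPM in MC. On this scale MC 20 lay inside the MS range, but all MC values of U2 lay above MS when scaled by totals alone. U4atac (RF00618), of the minor spliceosome, lay the other way, at 3.60, 5.0 and 2.59 CPM in MS and at 0, 0 and 1.54 CPM in MC, with an unadjusted p of 0.103 in edgeR. Nuclear RNase P RNA, which trims the 5′ end of tRNA, stood at 1.02, 1.44 and 0.384 CPM in MS and at 17.8, 2.64 and 2.11 CPM in MC. 7SK RNA, an inhibitor of transcription elongation, stood at 31.9, 64.3 and 49.1 CPM in MS and at 339, 49.2 and 92.0 CPM in MC and overlapped. Fragments of tRNA overlapped too, at 687, 671 and 776 CPM in MS and 1653, 486 and 1325 CPM in MC.

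snoRNAs numbered 126 tested, with 15 higher (11.9%, against 8.69% of all features) and 2 lower (1.59%, against 2.3%) at an unadjusted p under 0.05. Of the 15 higher ones, 8 had 0 counts in MC 20, and 6 of these also had 0 in each MS library, so that they were present in MC 16 and MC 17 alone of the 6 libraries, as were most plant miRNA reads. Without MC 16, 1 was higher and 2 were lower. The lower ones included the feature with the smallest p of all, SNORA35 (RF00566), a brain snoRNA whose mouse gene Snora35 lies at chrX:146994381-146994508 (plus strand, GRCm38) within an intron of the serotonin receptor gene Htr2c. SNORA35 had 53, 34 and 22 counts in MS 3, MS 4 and MS 23. It had 0, 0 and 1 counts in MC 16, MC 17 and MC 20. The groups lay far apart at a low level, no higher than 4.89 CPM in any library. The ratio of MS to MC over the group totals was 92.6, with an exact 95% interval of 16.3 to 3692 that covers counting error only. The unadjusted p was 0.000289 and the adjusted p 0.403 in edgeR with Benjamini-Hochberg adjustment, and DESeq2 called it with an adjusted p of 0.00215. SS libraries had 1, 16 and 8 counts and CS libraries 1, 3 and 1, so that MS was the highest group and MC lay at the level of CS. The other lower snoRNA was SNORA55 (RF00431), at 0.738, 1.02 and 5.28 CPM in MS and 0, 0.229 and 0.244 CPM in MC.

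Other small RNAs of the Htr2c gene varied with single libraries. The gene hosts several miRNAs that are abundant in choroid plexus, of which 5 mature forms were tested and 0 had an unadjusted p under 0.05. The summed level of all 10 listed was 67.4, 16.8 and 18.4 CPM in MS and 12.6, 27.0 and 18.6 CPM in MC. MS 3 stood apart, and MS 4 and MS 23 lay inside the MC range. mmu-miR-1298-5p, the most abundant of them, stood at 52.6, 8.31 and 7.20 CPM in MS and at 7.54, 13.7 and 12.2 CPM in MC.

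Marker miRNAs of other tissues also moved with single libraries. The 9 liver and gut miRNAs detected summed to 3958, 563 and 442 CPM in MS and to 455, 248 and 713 CPM in MC. Of the 7 tested, 3 were lower and 1 was higher at an unadjusted p under 0.05 in edgeR. mmu-miR-122-5p, the hepatocyte miRNA, stood at 2525, 147 and 69.2 CPM in MS and at 182, 9.06 and 103 CPM in MC. mmu-miR-192-5p stood at 1026, 198 and 153 CPM in MS and at 44.4, 108 and 236 CPM in MC. MS 3 alone was high in both. The log2 fold change of mmu-miR-122-5p was -3.22, and -0.22 without MS 3, and that of mmu-miR-192-5p was -1.83, and -0.49 without MS 3. The mir-122 precursor family (RF00684) stood at 150, 3.39 and 6.82 CPM in MS and at 1.01, 0.229 and 0.406 CPM in MC and lay apart between the groups, with a log2 fold change of -6.64 that was -3.32 without MS 3. mmu-miR-122-3p was the remaining lower one. The higher one, mmu-miR-375-3p, a miRNA of endocrine cells, stood at 74.1, 50.2 and 53.2 CPM in MS and at 175, 58.8 and 107 CPM in MC and overlapped. Without MS 3, 62 of all features had an unadjusted p under 0.05 in place of 153.

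The 13 leukocyte and microglia miRNAs detected summed to 4518 to 7646 CPM in MS and 3756 to 11686 CPM in MC. Of the 11 tested, 0 had an unadjusted p under 0.05 in edgeR. mmu-miR-21a-5p stood at 3643, 1432 and 1306 CPM in MS and at 440, 1733 and 8135 CPM in MC. mmu-miR-223-3p, a neutrophil miRNA, stood at 16.6, 5.08 and 5.18 CPM in MS and at 1.68, 3.78 and 147 CPM in MC. MC 20 stood apart in both, and also in mmu-miR-10a-5p of the hindbrain and spinal Hox cluster, at 37.8, 7.97 and 9.89 CPM in MS and 7.21, 9.06 and 141 CPM in MC. Without MC 20, 233 features had an unadjusted p under 0.05. Brain and neuron markers were abundant in each library, with sums of 133253 to 287924 CPM in MS and 153740 to 159136 CPM in MC. These markers are those of brain in general and do not identify the PFC. Of these 26, 3 were higher (mmu-miR-137-5p, mmu-miR-138-5p and mmu-miR-139-3p) and 0 were lower at an unadjusted p under 0.05. The part of these tissue markers in the other results was not tested.

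Of 7 oligodendrocyte, 6 red blood cell, 3 Hox cluster, 20 choroid plexus and ciliated epithelium and 11 olfactory and sensory miRNAs tested, 0 had an unadjusted p under 0.05. Of 4 muscle miRNAs, 1 was higher, mmu-miR-206-3p. Olfactory and sensory miRNAs summed to 103 to 932 CPM in MS and 94.0 to 393 CPM in MC, and 1 of 11 lay above 0. Among the oligodendrocyte list, mmu-miR-219a-2-3p stood at 558, 30.3 and 27.1 CPM in MS and at 1115, 499.8 and 57.4 CPM in MC. mmu-miR-219b-5p stood at 40.8, 542 and 583 CPM in MS and at 73.9, 39.9 and 411 CPM in MC. Where one was high the other was low, and their sums were 599, 573 and 611 CPM in MS and 1189, 540 and 469 CPM in MC. Their hairpins lie on opposite strands of one place on chromosome 2 (chr2:29845631-29845727, minus strand, and chr2:29845647-29845711, plus strand), and the reverse complement of mmu-miR-219b-5p is found at bases 60 to 81 of the 97-base Mir219a-2 hairpin.

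Whether the cocaine effect differed with methionine was tested as an interaction, MC minus MS against CS minus SS. edgeR with Benjamini-Hochberg adjustment called 0 of 1393 features (0.0%), with 52 at an unadjusted p under 0.05 (3.73%), and DESeq2 called 1. That was mmu-miR-543-5p, with an interaction of 0.69 on the log2 scale and an adjusted p of 0.00245 in DESeq2, where edgeR gave an adjusted p of 0.922. CS against SS itself gave 0 calls by edgeR, 53 at an unadjusted p under 0.05 (3.8%) and 3 calls by DESeq2, of which 2 were plant miRNA families (RF00704 and RF00452) and 1 a snoRNA family (RF00309). The share at an unadjusted p under 0.05 was 11.0% on the methionine background and 3.8% without it, a difference that was not itself tested. The first of these shares was 5.53% without MC 16, 4.45% without MS 3, 2.87% without MC 16 and MC 17 and 2.01% with the library set as a covariate. For the miRNAs above, the interaction on the log2 scale had an unadjusted p of 0.033 for mmu-miR-543-5p and 0.042 for mmu-miR-125b-2-3p in edgeR, and of 0.025 for SNORA35, all with adjusted p above the threshold.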

How the data were processed

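Small RNA libraries from PFC were deposited with 1 table per library, which lists each annotated or predicted small RNA with its class, its read count as given by the authors and a TPM value that the authors derived from it. Per the study's methods, reads under 16 nt were removed, clean reads were mapped to the genome with AASRA, and reads left after removal of miRNA, rRNA and tRNA matches were aligned to piRBase with Bowtie, with 1 mismatch allowed. The submitters' processing notes name mm10. The deposited counts were used for all tests, and the deposited TPM only to check the totals. A feature absent from a table was given 0.

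A feature entered the tests when 3 or more of the 12 libraries had 5 or more counts of it. One model over the 4 groups, with TMM factors and 1 coefficient per group, was fitted in edgeR 4.0.16 (R 4.3.3), and MC minus MS and the interaction were taken from it, with Benjamini-Hochberg adjustment over all features and a threshold of 0.05. Shares and totals were compared by exact two-sided permutation over 20 arrangements. Total counts ran from 7.77 to 11.0 in units of 1000000 in the 6 libraries. Positions of miRNA and snoRNA genes were read from the GRCm38 annotation and sequences from RefSeq. Other steps used scipy 1.17.1, pandas 2.3.3 and numpy 2.4.6 under Python 3.11.15, with figures from matplotlib 3.10.9, and the scripts were tested on simulated data.

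Named features were the miRNAs with a mean of at least 10 CPM whose groups did not overlap (up to 12 in each direction, by smallest p), likewise 4 piRNAs and 3 other features of at least 1 CPM in each direction, the 10 miRNAs of highest level, and up to 4 members of each list. Other features named for a count, a locus or a single library were chosen after their values were seen. The members and lists were chosen with earlier results of these data known. Alternatives were DESeq2 1.42.0, no TMM factors, a minimum of 10 counts or no filter, the 6 libraries alone, classes fitted separately, precursor families left out, a library set as covariate, the comparison within the library set of MS, a change of denominator for shares, a minimum fold, and each library left out in turn. Leaving out MC 16 and MC 17 together was added after seeing the data. The library sets were read from the precursor profiles, which include the tested plant families, and are no label of the study.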

Additional observations from a re-analysis of the deposited data

How the results depend on the processing

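No paired analysis was possible because the groups compared share no replicate numbers. DESeq2 called 32 features in MC against MS and 1 in the interaction, where edgeR called 0 in each; the cause was not tested. With single libraries left out, the calls ranged from 0 to 1 in MC against MS and from 0 to 0 in the interaction. Features at an unadjusted p under 0.05 numbered 153, and 62 to 233 with single libraries left out, 40 without MC 16 and MC 17, 61 within the library set of MS and 28 with the set as covariate. The corresponding interaction count of 52 ranged from 29 (without MS 3) to 97 (without MC 20). Of the 10 rRNA families, 5 to 10 kept an unadjusted p under 0.05 with single libraries left out, 1 within the set of MS, 0 without MC 16 and MC 17 and 0 with the set as covariate. Within the set of MS, and without MC 16 and MC 17, MC is the single library MC 20, which is assumed to vary like the other groups.

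The mature miRNA share turned to 0.812 percentage points on the annotated denominator. Of 59 named features, 56 kept their direction under each of the 16 alternatives that was run on them; the let-7 and mir-122 precursor families, 2 of the 56, could not be run with precursor families left out. mmu-miR-132-3p turned to 0.26 with the set as covariate. RF02542, a low rRNA family, turned to -0.21 within the set of MS and -0.17 without MC 16 and MC 17. mmu-let-7c-5p ranged from -0.034 (without MC 16) to 1.60 (without MC 20) with single libraries left out, and turned to -0.31 within the set of MS and -0.26 without MC 16 and MC 17. At a minimum log2 fold change of 1, 0 features were called. Depth limits features of a few counts, whose values rest on single reads.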
